A study of Mus musculus with 18 samples.

Results

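The 7 genes Liph, Lipn, Sez6l, Lmo7, Flnc, Slc6a4 and Mmp16 were followed across the dorsal root ganglia of injured and uninjured mice. They were selected because an earlier analysis of these same libraries found them raised 7 d after nerve injury, and they are 7 of the 21288 genes listed in the deposited counts. That selection used the 7 d libraries and the naive libraries, so their difference between these times is a description. Counts of calls given for it below follow from that choice and are not read as a test. Which genotype the selection used was not recorded, and both are treated as used. The study examined importin alpha3, a carrier of proteins into the nucleus encoded by Kpna4, in mouse neuropathic pain. The injury was spared nerve injury, in which some branches of the sciatic nerve are cut and another is left whole. Importin alpha3 knockout (KO) mice gave 4 libraries without injury (naive), 3 at 7 d and 3 at 2.5 months. Wild-type (WT) mice gave 4 naive libraries, 3 at 7 d and 1 at 2.5 months. Strain, age, sham surgery and the tissue in which Kpna4 was removed are not among the labels used here, so time after injury cannot be told apart from surgery or age. The labels do not state that each library is a separate animal, so p-values measure the spread between libraries.

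Kpna4 stood at 1.01 to 5.63 CPM in the 10 libraries labelled KO and at 89.6 to 136 CPM in the 8 libraries labelled WT, with no overlap. CPM is the count scaled to a common library size by edgeR. Total counts were 12565448 to 14157742 per library at 7 d, 15501075 to 19283086 at 2.5 months and 18634506 to 21585680 in naive mice, so depth differed with time. The 10 sensory neuron markers, Tubb3 and Scn10a among them, summed to between 11400 and 21470 CPM in all 18 libraries, as the tissue label says. In all, 3 libraries were set aside in an alternative fit because they stood apart in an earlier analysis: the naive KO libraries ko_39 and ko_40 and the 7 d KO library ko_422_7d. The first of these matters for every gene here and is described further on.

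Dorsal root ganglia hold the cell bodies of sensory neurons, with satellite glia, Schwann cells, macrophages and vessels around them. When a peripheral axon is cut, the neuron switches on a regeneration programme whose best known members are the transcription factor Atf3 and the growth-associated genes Sprr1a and Gap43. The 7 genes are less often discussed in that setting, and their products do unrelated work. Liph and Lipn encode lipases. Sez6l and Slc6a4 encode membrane proteins, Lmo7 and Flnc encode proteins bound to the actin cytoskeleton, and Mmp16 encodes a protease of the cell surface. In bulk tissue such as this, more RNA per cell and more cells of a type cannot be told apart.

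**Figure D1:**
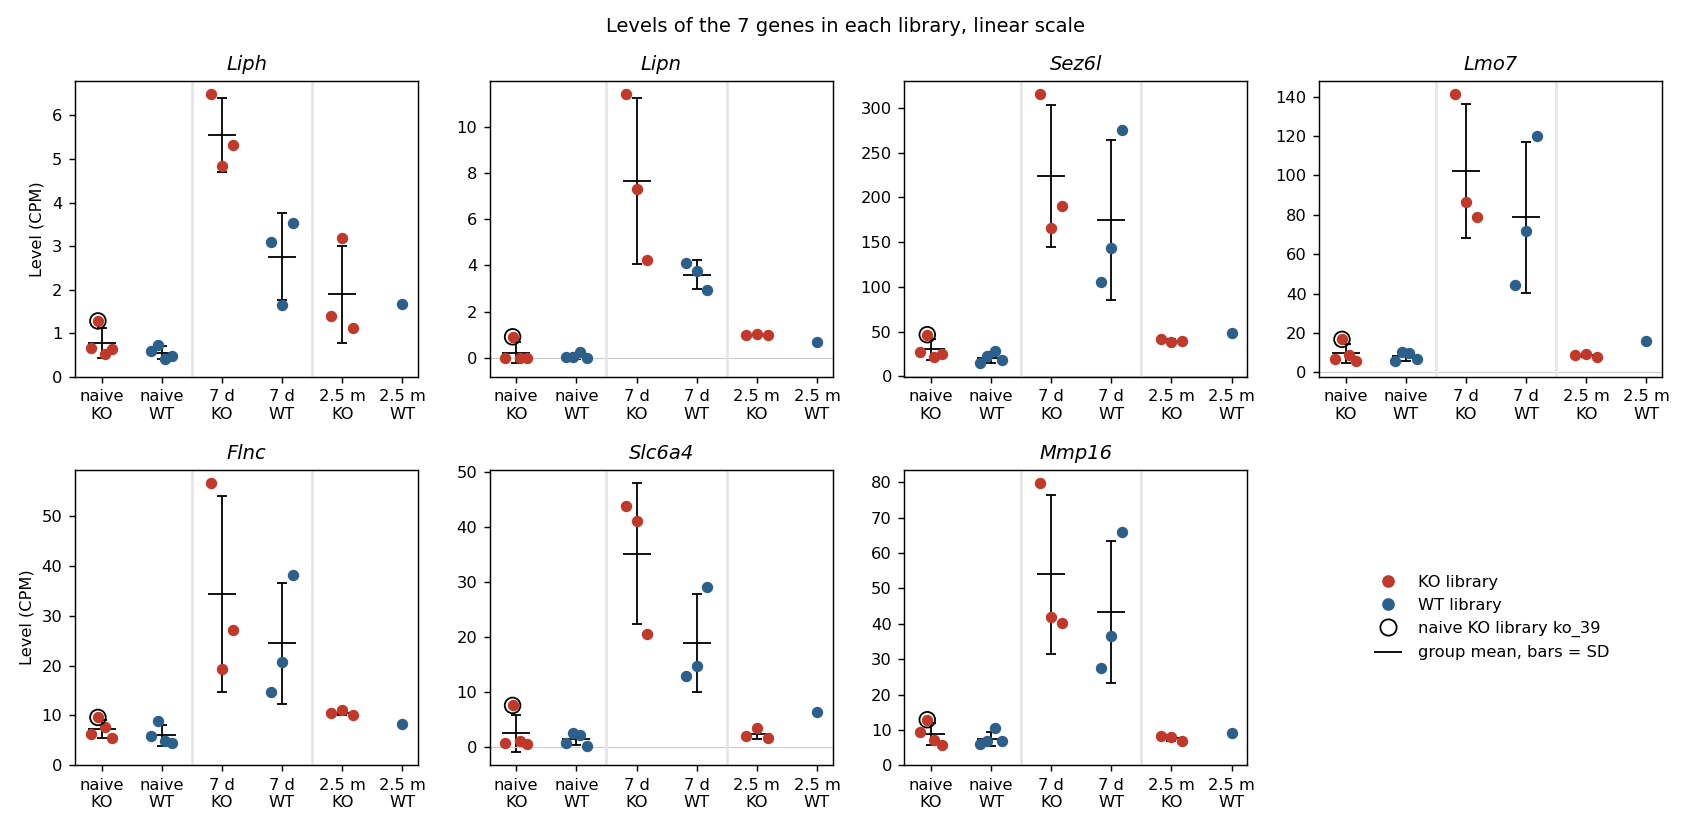
Level of each gene in CPM on a linear axis, one panel per gene, with 1 point per library and the group mean with SD; KO libraries are red, WT libraries blue, and a ring marks ko_39. Every 7 d library lies above every naive library for 7 of 7 genes, as for 4.19% of the 19010 genes that passed the filter on low counts, and every 2.5-month KO library lies below every 7 d KO library for 7 of 7, as for 10.3% of those genes; the genes were chosen on the 7 d libraries.

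Liph encodes lipase H, which makes the signalling lipid lysophosphatidic acid from phosphatidic acid at the cell surface and is known in humans for a role in hair growth. In CPM it was the scarcest gene of the set at 7 d, and Lipn was scarcer in naive mice and at 2.5 months. Naive KO libraries held 0.661, 1.28, 0.532 and 0.646 CPM, and naive WT libraries held 0.598, 0.729, 0.410 and 0.478 CPM. At 7 d the KO libraries held 6.49, 4.84 and 5.32 CPM and the WT libraries 3.09, 1.64 and 3.54 CPM. At 2.5 months the KO libraries held 1.39, 3.18 and 1.12 CPM and the lone WT library held 1.68 CPM. All 7 d values exceeded all naive values, the 3 KO values at 7 d exceeded the 3 WT values, and ko_367_2_5_m was the highest at 2.5 months. The counts behind these levels were small, between 8 and 90 reads per library. Liph (ENSMUSG00000044626) lies at chr16:21953817-21995663 on the minus strand of GRCm38, with 10 exons in the merged GENCODE M21 annotation.

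Of the 12 tested genes that make, degrade or sense lysophosphatidic acid, 1 rose and 3 fell in KO at 7 d. In WT at 7 d, edgeR called 0 of the 12, with 2 at an unadjusted p under 0.05 and 1 called by DESeq2. In KO at 2.5 months edgeR called 0 and DESeq2 called 1, again with 2 at an unadjusted p under 0.05. Their median log2 change was -0.40 in KO at 7 d, beside -0.0015 over all genes tested. Enpp2, the gene of autotaxin, which makes lysophosphatidic acid from lysophosphatidylcholine, fell to 14.2 ± 2.12 CPM in 7 d KO (SD, n = 3), against 28.9 ± 3.27 CPM in naive KO (SD, n = 4; log2 change -1.02 ± 0.17, SE; edgeR adjusted p = 0.000724). In WT, Enpp2 stood at 16.4 ± 1.21 CPM at 7 d and 24.1 ± 5.56 CPM in naive mice (edgeR adjusted p = 0.0785).

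Lipn encodes a lipase of the acid lipase family, known in humans from the outer layers of the skin. It was almost absent without injury. Naive KO libraries held 0, 0.915, 0 and 0 CPM, where the value above 0 is 20 reads in ko_39, and naive WT libraries held 0.0499, 0.0486, 0.256 and 0 CPM. At 7 d the KO libraries held 11.4, 7.31 and 4.22 CPM and the WT libraries 4.12, 3.77 and 2.92 CPM. At 2.5 months the KO libraries held 0.983, 1.02 and 1.01 CPM, and the lone WT library held 0.698 CPM. The 3 KO libraries at 7 d all lay above the 3 WT libraries, and the 3 KO libraries at 2.5 months had an SD of 0.0190 CPM. With ko_39 left out, the naive KO libraries had no Lipn read, and a floor of 3 reads over those libraries gives 0.0487 CPM. Against that floor, so with ko_39 left out, the ratio for Lipn was 157 in KO at 7 d and 20.7 at 2.5 months. Neither is a lower bound over all libraries: with ko_39 in, the ratios of group means were 33.4 and 4.39. The 7 d ratios come from the libraries on which the genes were chosen. Lipn was also the gene that did not pass the filter on low counts in the naive libraries alone, which 6 of the 7 did; all 7 passed over all libraries. Fitted changes that involve its naive level rest on few reads and are imprecise. Lipn (ENSMUSG00000024770) lies at chr19:34067358-34084918 on the plus strand.

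The promoter windows of both lipase genes are shown because Lipn had nearly no reads in naive libraries and both genes had their 3 KO libraries at 7 d above the 3 WT libraries. They are RefSeq windows on GRCm38.p6, 250 bases before to 50 after the annotated start, Liph at chr16:21995493-21995792 on the minus strand and Lipn at chr19:34067108-34067407 on the plus strand. Capitals mark a match to a searched motif.
Liph: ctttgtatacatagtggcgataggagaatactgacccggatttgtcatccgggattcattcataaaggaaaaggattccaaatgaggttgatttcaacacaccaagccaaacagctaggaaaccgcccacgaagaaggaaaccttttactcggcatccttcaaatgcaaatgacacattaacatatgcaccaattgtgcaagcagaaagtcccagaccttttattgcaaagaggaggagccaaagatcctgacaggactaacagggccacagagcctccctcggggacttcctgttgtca
Lipn: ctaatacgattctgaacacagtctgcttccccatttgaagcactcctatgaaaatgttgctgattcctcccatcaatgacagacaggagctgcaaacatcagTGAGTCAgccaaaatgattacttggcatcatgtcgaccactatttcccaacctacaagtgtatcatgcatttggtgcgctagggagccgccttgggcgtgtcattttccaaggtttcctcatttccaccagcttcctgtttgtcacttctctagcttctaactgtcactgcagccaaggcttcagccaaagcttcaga
In all 8 windows, 4 motifs were searched on both strands: the AP-1 site TGANTCA, the CRE TGACGTCA, the STAT site TTCNNNGAA and the TATA box TATAAA. Windows were found for 6 of the 7 genes, 8 windows in all, and not for Mmp16. The Lipn window holds the only match, TGAGTCA for AP-1 at bases -148 to -142 before the start. Among the 32851 windows of the RefSeq table, 7.81% hold TGANTCA, 1.79% the CRE, 8.3% the STAT site and 13.6% the TATA box. A match describes these letters and does not show that a factor binds there.

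Among the other 12 acid and neutral lipases tested, 3 rose and 0 fell in KO at 7 d, and 1 rose and 0 fell in WT. The median log2 change was 0.29 in KO and 0.32 in WT. Lipe, hormone-sensitive lipase, stood at 20.01 ± 1.83 CPM in 7 d KO and 10.3 ± 2.58 CPM in naive KO (log2 change 0.96 ± 0.19, SE; edgeR adjusted p = 0.00372). Lipk, another member of the acid lipase family, rose by 1.34 ± 0.27 on the log2 scale in KO at 7 d (SE, edgeR adjusted p = 0.00435). In WT at 7 d Lipk differed by 0.90 ± 0.28 and was not called (edgeR adjusted p = 0.0984). Lipe rose there by 0.78 ± 0.19 (edgeR adjusted p = 0.032), a call ended by leaving out any 1 of 5 libraries. In KO at 2.5 months edgeR called 0 of the 12, with 4 at an unadjusted p under 0.05 and 1 called by DESeq2. Lipa, the lysosomal acid lipase, differed by -0.26 ± 0.13 in KO at 7 d and was not called (edgeR adjusted p = 0.205). Markers of keratinocytes, the cells in which Lipn is best known, summed to 8.43 to 12.6 CPM in 7 d KO, 6.60 to 7.78 CPM in naive KO, 5.85 to 7.94 CPM in 7 d WT and 5.90 to 6.88 CPM in naive WT. The highest count of Krt14 and of Dsg3 in any library was 8 reads, and Krt5 is not among the genes listed.

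Sez6l encodes a membrane protein of the seizure-related 6 family, with CUB and sushi domains, that is cut by the beta-secretase BACE1 in the mouse brain. It was the most abundant of the 7 per kilobase of exon in all 6 groups, at 36.9 CPM per kilobase in 7 d KO. In naive KO mice the libraries held 27.4, 46.7, 21.2 and 25.2 CPM, and naive WT libraries held 14.7, 23.2, 28 and 17.8 CPM. After 7 d, KO libraries held 315, 166 and 190.4 CPM and the WT libraries 106, 144 and 275 CPM. After 2.5 months, KO libraries held 41.4, 38.7 and 39.8 CPM and the lone WT library 48.7 CPM. Every 7 d library was above every naive library, KO and WT overlapped at 7 d, and the 2.5-month KO libraries were above all naive libraries but ko_39. Sez6l (ENSMUSG00000058153) lies at chr5:112419151-112577185 on the minus strand.

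Its relatives did not share one direction. Of 11 other Sez6 family, BACE, CUB and sushi genes tested, 2 rose and 2 fell in KO at 7 d, 1 rose in WT at 7 d, and 2 fell in KO at 2.5 months. Neto1, an auxiliary subunit of kainate and NMDA receptors with CUB domains, rose by 1.85 ± 0.23 on the log2 scale in KO (SE; edgeR adjusted p = 7.67e-05) and by 1.61 ± 0.23 in WT (edgeR adjusted p = 0.000661). Sez6 itself differed by -0.17 ± 0.15 in KO and 0.25 ± 0.15 in WT, and Sez6l2 by 0.25 ± 0.12 in KO and 0.37 ± 0.12 in WT, none of them called (edgeR adjusted p between 0.0968 and 0.485).

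Slc6a4 encodes the serotonin transporter, which takes serotonin back into cells and is best known from serotonergic neurons, platelets and, in rodents, mast cells. Naive KO libraries held 0.756, 7.50, 1.01 and 0.461 CPM, and naive WT libraries held 0.598, 2.58, 2.15 and 0.213 CPM. In the 7 d groups, KO libraries held 43.8, 41.1 and 20.4 CPM and the WT libraries 12.9, 14.6 and 29.0 CPM. Late after injury, at 2.5 months, KO libraries held 2.02, 3.42 and 1.65 CPM and the lone WT library 6.28 CPM. Among naive libraries ko_39 was the highest and held 10.1 times the mean of the other naive KO libraries. KO and WT overlapped at 7 d. Slc6a4 (ENSMUSG00000020838) lies at chr11:76998603-77032340 on the plus strand; its RefSeq promoter window at chr11:76998347-76998646 is shown beside those of the lipases because its fitted rise was second to that of Lipn, and it is richer in G and C (67.7%, against 46.7% for Lipn and 45.7% for Liph) and holds none of the searched motifs.
Slc6a4: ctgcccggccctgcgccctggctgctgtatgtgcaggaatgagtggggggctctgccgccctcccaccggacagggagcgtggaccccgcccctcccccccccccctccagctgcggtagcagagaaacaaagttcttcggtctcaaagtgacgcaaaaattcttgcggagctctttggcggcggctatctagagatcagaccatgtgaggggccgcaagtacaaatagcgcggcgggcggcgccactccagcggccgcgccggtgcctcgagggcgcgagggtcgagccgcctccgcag

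Of 19 other monoamine transporters, enzymes and serotonin receptors tested, 0 rose and 4 fell in KO at 7 d, and 0 rose and 1 fell in WT. Their median log2 change was -0.30 in KO and -0.24 in WT. Htr3a, a subunit of the serotonin-gated ion channel, fell to 94.0 ± 28.7 CPM in 7 d KO, against 215 ± 26.8 CPM in naive KO (log2 change -1.20 ± 0.27, SE; edgeR adjusted p = 0.00779). The partner subunit Htr3b had a log2 change of -1.02 ± 0.24 in KO (SE, edgeR adjusted p = 0.01). In WT at 7 d neither subunit was called. Htr3a differed there by -0.48 ± 0.26 and Htr3b by -0.26 ± 0.23 (edgeR adjusted p = 0.374 and 0.635). Slc18a2, which loads monoamines into vesicles, differed by 0.31 ± 0.14 in KO and -0.14 ± 0.14 in WT and was not called (edgeR adjusted p = 0.153 and 0.694). Mast cell markers summed to 64.9 to 103 CPM in 7 d KO and 84.2 to 112 CPM in naive KO, and to 85.5 to 110.0 CPM in 7 d WT and 89.9 to 102 CPM in naive WT; edgeR called 0 of the 7 tested at 7 d in either genotype. Platelet markers summed to 22.0 to 46.1 CPM in 7 d KO and 14.4 to 23.5 CPM in naive KO, and to 23.5 to 31.5 CPM in 7 d WT and 17.5 to 32.0 CPM in naive WT. EdgeR called 1 of the 7 platelet markers higher at 7 d in KO and 1 in WT, Gp1bb in both (log2 change 1.35 in KO and 0.98 in WT; edgeR adjusted p = 0.00106 and 0.0216). Gp1bb averaged 18.6 ± 9.29 CPM in 7 d KO and 7.28 ± 1.18 CPM in naive KO (SD). In WT it averaged 19.3 ± 1.31 CPM at 7 d and 9.75 ± 0.696 CPM in naive mice, so it made up much of the platelet sums. The highest count in any library was 12 reads for Gp9 and 16 for Treml1, both on the platelet list. The part of mast cells and platelets in the Slc6a4 level was not tested.

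Lmo7 encodes a LIM and PDZ domain protein that links adherens junctions to actin. Without injury, KO libraries held 6.89, 16.7, 8.98 and 5.58 CPM, and naive WT libraries held 5.78, 10.5, 9.84 and 6.48 CPM. The 7 d KO libraries held 141, 86.6 and 78.9 CPM and the WT libraries 44.1, 71.6 and 120.2 CPM. The 2.5-month KO libraries held 8.96, 9.05 and 7.67 CPM and the lone WT library 15.8 CPM. The 2.5-month KO values lay inside the naive range, while the lone WT library lay above all 4 naive WT libraries. Lmo7 (ENSMUSG00000033060) lies at chr14:101729957-101934710 on the plus strand. Of 21 junction and LIM-domain partners tested, 2 rose and 2 fell in KO at 7 d, 1 rose in WT at 7 d, and 1 rose and 2 fell in KO at 2.5 months. Nectin1, an adhesion molecule of these junctions, rose by 0.62 ± 0.13 on the log2 scale in KO at 7 d (SE, edgeR adjusted p = 0.00483). In WT at 7 d Nectin1 differed by 0.28 ± 0.13 and was not called (edgeR adjusted p = 0.284). Limch1, the closest relative of Lmo7, differed by -0.63 ± 0.30 in KO and -0.40 ± 0.30 in WT and was not called (edgeR adjusted p = 0.17 and 0.548).

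Flnc encodes filamin C, an actin cross-linker best known from striated muscle. Naive KO libraries held 6.28, 9.61, 7.76 and 5.44 CPM, and naive WT libraries held 5.98, 8.99, 4.82 and 4.41 CPM. At 7 d the KO libraries held 56.6, 19.4 and 27.1 CPM and the WT libraries 14.6, 20.7 and 38.03 CPM. At 2.5 months the KO libraries held 10.4, 11.1 and 10.1 CPM and the lone WT library 8.37 CPM. One 7 d KO library, ko_420__7d, held more than 2 times the level of either of the others, and all 3 KO libraries at 2.5 months lay just above the highest naive library, at 9.61 CPM. Flnc (ENSMUSG00000068699) lies at chr6:29433256-29461883 on the plus strand. Markers of skeletal muscle summed to 4.61 to 5.96 CPM in 7 d KO and 9.52 to 451 CPM in naive KO, and to 3.27 to 4.39 CPM in 7 d WT and 3.69 to 124 CPM in naive WT, so their sums were not higher at 7 d. Smooth muscle and mural markers summed to 111 to 175 CPM in 7 d KO and 178 to 331 CPM in naive KO.

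Among 18 other filamins and partners tested, 4 rose and 1 fell in KO at 7 d, 2 rose in WT at 7 d and 1 rose in KO at 2.5 months. Itga7, the alpha7 integrin subunit, rose to 650.3 ± 123 CPM in 7 d KO, against 217 ± 24.2 CPM in naive KO, and to 518 ± 144 CPM in 7 d WT, against 202 ± 23.3 CPM in naive WT (log2 change 1.58 ± 0.16 in KO and 1.36 ± 0.16 in WT, SE; edgeR adjusted p = 1.74e-05 and 0.000183). Hspb1, a small heat shock protein, rose by 1.51 ± 0.23 on the log2 scale in KO at 7 d (edgeR adjusted p = 0.000422). In WT at 7 d Hspb1 differed by 0.80 ± 0.23 and was not called (edgeR adjusted p = 0.0678). Flna, the gene of filamin A, differed by 0.30 ± 0.23 in KO and 0.17 ± 0.23 in WT and was not called at 7 d (edgeR adjusted p = 0.393 and 0.774).

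Mmp16 encodes a membrane-type matrix metalloproteinase, which cuts matrix proteins and activates pro-MMP2. Uninjured KO libraries held 9.35, 12.9, 7.28 and 5.86 CPM, and naive WT libraries held 6.18, 6.85, 10.5 and 6.80 CPM. The KO libraries of 7 d held 79.8, 41.9 and 40.1 CPM and the WT libraries 27.6, 36.6 and 65.8 CPM. The KO libraries of 2.5 months held 8.38, 8.03 and 6.77 CPM and the lone WT library 9.21 CPM. All 2.5-month values lay inside the naive range. Mmp16 (ENSMUSG00000028226) lies at chr4:17852893-18119145 on the plus strand. Of 18 other metalloproteinases and inhibitors tested, 1 rose and 2 fell in KO at 7 d, 1 rose and 1 fell in WT at 7 d, and 1 rose and 3 fell in KO at 2.5 months. Timp1, an inhibitor of matrix metalloproteinases, rose by 2.29 ± 0.34 on the log2 scale in KO at 7 d (SE, edgeR adjusted p = 0.000335). It rose by 1.52 ± 0.33 in WT (edgeR adjusted p = 0.0153), a call that ended without wt_67 or without wt_416_7d. The other membrane-type enzymes were not called at 7 d: Mmp14 differed by -0.05 ± 0.18 in KO and 0.10 ± 0.18 in WT, Mmp15 by -0.39 ± 0.15 in KO and -0.02 ± 0.15 in WT, and Mmp24 by -0.11 ± 0.18 in KO and 0.12 ± 0.18 in WT (edgeR adjusted p between 0.0946 and 0.976). In all 7 of these lists, the called genes given with values are ones whose call in KO at 7 d held when each library was left out in turn. In WT at 7 d the calls of Lipe and Timp1 did not hold so. Of the calls the naming rule picked, 13 of 22 held in KO at 7 d, 3 of 7 in WT at 7 d and 0 of 9 in KO at 2.5 months.

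Set side by side, the 7 genes differed in the size of their 7 d difference, whose presence was the ground for choosing them. In KO the fitted log2 difference of 7 d over naive was 4.97 ± 0.77 for Lipn, 3.83 ± 0.76 for Slc6a4, 3.42 ± 0.37 for Lmo7, 2.89 ± 0.32 for Sez6l, 2.81 ± 0.37 for Liph, 2.61 ± 0.31 for Mmp16 and 2.24 ± 0.35 for Flnc (SE). In WT the order was nearly alike, at 5.24 ± 0.91 for Lipn, 3.75 ± 0.80 for Slc6a4, 3.27 ± 0.37 for Lmo7, 3.06 ± 0.33 for Sez6l, 2.51 ± 0.32 for Mmp16, 2.29 ± 0.40 for Liph and 2.01 ± 0.35 for Flnc. With all libraries in, neighbours in these orders lay within their summed errors. Without ko_39 the KO value was 5.57 ± 0.63 for Slc6a4 and 3.84 ± 0.35 for Lmo7. As ratios of group means, Slc6a4 stood 14.4-fold higher in KO and 13.6-fold in WT, Lmo7 10.7-fold in KO and 9.65-fold in WT, and Mmp16 6.10-fold in KO and 5.71-fold in WT. The ratio of Slc6a4 in KO depends on ko_39: without it the naive KO mean was 0.742 CPM in place of 2.43 CPM, and the ratio 47.3. All 7 met the call rule in both genotypes, edgeR's quasi-likelihood test with a Benjamini-Hochberg adjusted p under 0.05. Without wt_28, 6 of the 7 met it in WT. Over all 19010 genes tested that rule called 7.61% higher and 5.89% lower in KO, and 2.5% higher and 0.673% lower in WT. Since the genes were chosen on this difference, nothing is read from their count.

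**Figure D2:**
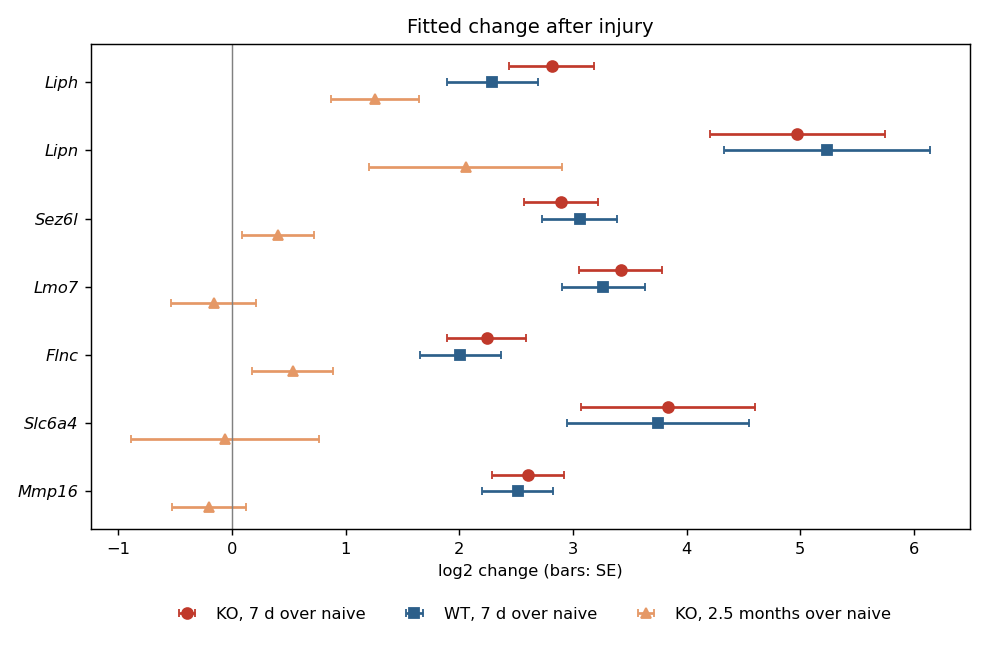
Fitted log2 change of each gene against naive mice of the same genotype, with SE bars: KO at 7 d (red circles), WT at 7 d (blue squares) and KO at 2.5 months (orange triangles). The 7 d points lie between 2.01 and 5.24 by choice of the genes, and the 2.5-month points between -0.20 and 2.06.

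At 2.5 months the KO ganglia had lost most of these differences. For all 7 genes every 2.5-month KO library lay below every 7 d KO library, with a fitted log2 change of -1.56 ± 0.39 for Liph at the least and -3.90 ± 0.87 for Slc6a4 at the most (SE). Because the 7 d libraries were those on which the genes were chosen, this too is a description; all 7 met the call rule there, which called 2.14% of genes higher and 4.33% lower. DESeq2 called 6 of the 7, all but Lipn, edgeR on the compared groups alone called 5, and edgeR called 3 without ko_420__7d or without ko_378_2_5_m and 4 without ko_362_2_5_m. Expressed as the share of the mean rise in CPM from naive to 7 d, 23.4% was left for Liph, 12.1% for Flnc, 10.5% for Lipn and 5.09% for Sez6l. For Slc6a4, Lmo7 and Mmp16 the share was -0.21%, -1.06% and -2.49%, which is a 2.5-month mean at or under the naive mean. Leaving ko_39 out of the naive mean gave 26.0% for Liph, 14.5% for Flnc, 13.2% for Lipn, 7.71% for Sez6l, 4.72% for Slc6a4, 1.48% for Lmo7 and 0.495% for Mmp16. The place of Liph at the top rests on ko_367_2_5_m: without it the share was 9.93% for Liph, beside 10.4% for Lipn and 11% for Flnc. Without ko_420__7d the share of Flnc was 20.4%. With any 1 KO library left out, the shares of the lipases and Flnc lay between 8.51% and 31.5%, and those of the other 4 between -4.80% and 7.71%; these exclusions were chosen after seeing the data.

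**Figure D3:**
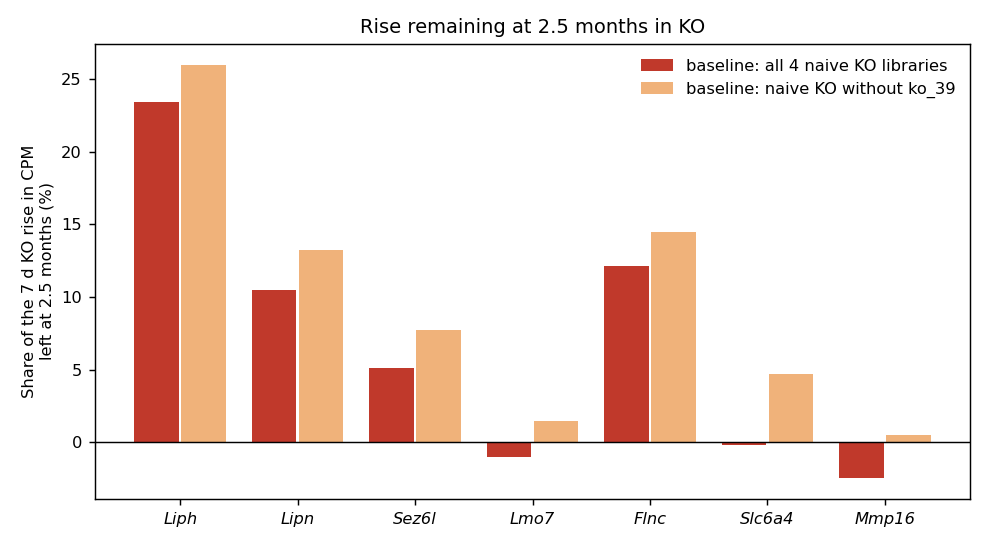
Share of the 7 d rise of KO mice, in CPM, that was left at 2.5 months, in percent, with all 4 naive KO libraries as the baseline (red) and with ko_39 left out (orange); bars start at 0 and have no error bars, being ratios of group means. Liph keeps 23.4% and 26.0%, though 9.93% without ko_367_2_5_m, and Mmp16 -2.49% and 0.495%.

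Tested against naive KO, 1 of the 7 was called at 2.5 months, beside 6.99% of all genes called higher and 4.57% called lower. The naive KO libraries also served the choice of the genes, so this test is not independent of it. Liph averaged 1.89 ± 1.12 CPM at 2.5 months and 0.780 ± 0.339 CPM in naive KO (SD, n = 3 and 4; log2 change 1.26 ± 0.39, SE; edgeR adjusted p = 0.0447). That call rested on few libraries: without ko_367_2_5_m the log2 change was 0.67 with an adjusted p of 0.318 by edgeR, and leaving out ko_35, ko_39, ko_40, ko_95 or ko_378_2_5_m gave edgeR adjusted p of 0.0999, 0.0506, 0.0883, 0.085 and 0.0522. Lipn averaged 1.01 ± 0.0190 CPM at 2.5 months and 0.229 ± 0.458 CPM in naive KO, and was not called (edgeR adjusted p = 0.107). Without ko_39 no read of Lipn is left in naive KO, so no test is given for it there. Flnc averaged 10.5 ± 0.496 CPM at 2.5 months and 7.27 ± 1.83 CPM in naive KO (log2 change 0.53 ± 0.35, SE; edgeR adjusted p = 0.306). Sez6l averaged 39.97 ± 1.32 CPM at 2.5 months and 30.1 ± 11.3 CPM in naive KO (0.41 ± 0.32; edgeR adjusted p = 0.392). The log2 changes of Lmo7, Slc6a4 and Mmp16 were -0.16 ± 0.37, -0.06 ± 0.83 and -0.20 ± 0.33 (edgeR adjusted p = 0.8, 0.968 and 0.704).

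By ranges alone, the 3 KO libraries at 2.5 months lay above all 8 naive libraries for Lipn and Flnc, and above all naive libraries but ko_39 also for Liph and Sez6l. Of all genes tested, 13.7% lay above all 8 naive libraries in this way and 14.0% above all but ko_39. Lmo7, Slc6a4 and Mmp16 overlapped the naive libraries either way. The lone WT library at 2.5 months gives no measure of spread and was not tested. It lay above all 4 naive WT libraries for 5 genes, all but Flnc and Mmp16, as did 34.9% of all genes tested. Of the mean WT rise at 7 d it held 50.9% for Liph, 28.1% for Slc6a4, 18% for Sez6l, 17.3% for Lipn, 12.6% for Flnc, 10.9% for Lmo7 and 4.54% for Mmp16. It lay inside the range of the 2.5-month KO libraries for Liph only.

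A set of 12 established axon injury genes, Atf3, Sprr1a and Gap43 among them, was followed as well. It was chosen with earlier results of these data known. All 12 rose at 7 d in both genotypes. In KO at 2.5 months 8 of the 12 were called higher, beside 1 of the 7 genes and 6.99% of all genes tested. Without ko_367_2_5_m only 14 genes in all were called in that comparison, so these counts depend on single libraries. The summed level of the 12 was 369 to 680.3 CPM in naive KO and 401 to 551 CPM in naive WT. At 7 d it was 2931 to 7211 CPM in KO and 2301 to 4199 CPM in WT. At 2.5 months it was 935 to 1272 CPM in KO and 1317 CPM in the WT library. Among 7 d KO libraries the sum was highest in ko_422_7d, at 7211 CPM, against 4750 CPM in ko_420__7d. That sum is weighted to the most abundant of the 12, such as Sprr1a at 1999 ± 1097 CPM in 7 d KO (SD, n = 3). All 7 genes were highest in ko_420__7d, as were 27.4% of all genes tested. Macrophage markers moved too: 8 of 10 rose in KO and 4 of 10 in WT at 7 d, with sums of 157 to 428 CPM in 7 d KO and 34.9 to 146 CPM in naive KO, and of 136 to 294 CPM in 7 d WT and 39.9 to 91.6 CPM in naive WT. In KO at 2.5 months, 4 of the 10 macrophage markers rose and their sum was 138 to 234 CPM. Other markers were lower at 7 d. Of 7 markers of myelinating Schwann cells, 3 fell in KO and 2 in WT, with sums of 3080 to 4460 CPM in 7 d KO and 5109 to 9732 CPM in naive KO, and of 2554 to 5133 CPM in 7 d WT and 4171 to 11240 CPM in naive WT; at 2.5 months 4 of them were higher in KO than at 7 d. Of 7 neutrophil markers, 1 fell in KO and 2 in WT, with sums of 41.8 to 150.4 CPM in 7 d KO and 256 to 768 CPM in naive KO, and of 11.4 to 126 CPM in 7 d WT and 241 to 1155 CPM in naive WT. Of 6 endothelial markers 3 fell in KO, with sums of 40.6 to 63.5 CPM in 7 d KO and 80.0 to 122 CPM in naive KO. Their part in the levels of the 7 genes was not tested.

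The comparison of KO with WT asks whether loss of importin alpha3 changed the level of these genes or their injury response. All 7 group means were higher in KO than in WT, both in naive mice and at 7 d, but no gene was called. Leaving out ko_39 turned the naive direction for Lipn, Lmo7, Slc6a4 and Mmp16, and leaving out ko_420__7d turned the 7 d direction for Flnc and Mmp16. In naive mice the log2 differences ran from 0.22 for Mmp16 to 1.34 for Lipn. The ranges of KO and WT libraries overlapped for all 7. Lipn had 20 naive reads in KO, all in ko_39, and 7 in WT, too few for its test to decide. Its lack of a call is therefore not read as likeness of KO and WT. EdgeR called 0 of the 7 (adjusted p = 1.0 for each), with 0 at an unadjusted p under 0.05 and 0 called by DESeq2. Over all genes 0.0105% were called higher and 0.0158% lower in naive KO.

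At 7 d, Liph averaged 5.55 ± 0.846 CPM in KO, against 2.76 ± 0.995 CPM in WT (SD over 3 libraries each), and Lipn averaged 7.64 ± 3.60 CPM in KO, against 3.60 ± 0.613 CPM in WT. Liph and Lipn were the 2 of the 7 whose 3 KO libraries all lay above the 3 WT libraries; of all genes tested, 4.4% lay wholly above and 3.78% wholly below in KO. The log2 difference was 1.01 ± 0.38 for Liph (edgeR unadjusted p = 0.0165, adjusted p = 0.562) and 1.08 ± 0.68 for Lipn (edgeR adjusted p = 0.65). For the other 5 the ranges overlapped. Slc6a4 averaged 35.1 ± 12.8 CPM in KO, against 18.8 ± 8.87 CPM in WT, and Sez6l 224 ± 79.8 CPM in KO, against 175 ± 89.1 CPM in WT. Lmo7 averaged 102 ± 33.9 CPM in KO, against 78.7 ± 38.6 CPM in WT, Mmp16 53.9 ± 22.4 CPM in KO, against 43.3 ± 19.99 CPM in WT, and Flnc 34.4 ± 19.6 CPM in KO, against 24.5 ± 12.1 CPM in WT. Their log2 differences were between 0.32 and 0.90 (edgeR adjusted p between 0.685 and 0.771). EdgeR and DESeq2 each called 0 of the 7 at 7 d, and 1 of the 7 had an unadjusted p under 0.05, beside 1604 of all genes (8.44%). Among all genes 0.0% were called higher and 0.00526% lower in KO.

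Averaged over naive and 7 d libraries, Liph was higher in KO by 0.75 ± 0.28 on the log2 scale (SE; edgeR unadjusted p = 0.0144, adjusted p = 0.586). The other 6 averaged differences ran from 0.27 for Mmp16 to 1.21 for Lipn, and none was called by edgeR or DESeq2, with 1 of the 7 at an unadjusted p under 0.05; the rule called 0.0158% of genes higher and 0.0263% lower. The difference of the 7 d injury change between genotypes, KO minus WT, ran from -0.26 ± 1.12 for Lipn to 0.52 ± 0.56 for Liph, each smaller than its SE. It was not called for any of the 7 by edgeR (adjusted p between 0.948 and 0.996) or DESeq2, with 0 of the 7 at an unadjusted p under 0.05; over all genes the rule called 0.00526% higher and 0.00526% lower. For Lipn, the averaged difference and the difference of injury changes both use its naive level, which rests on few reads, so neither decides. EdgeR and DESeq2 each called 0 of the 111 other genes of the pathway lists in any of these 4 genotype comparisons. Between 4 and 10 of the 111 had an unadjusted edgeR p under 0.05.

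**Figure D4:**
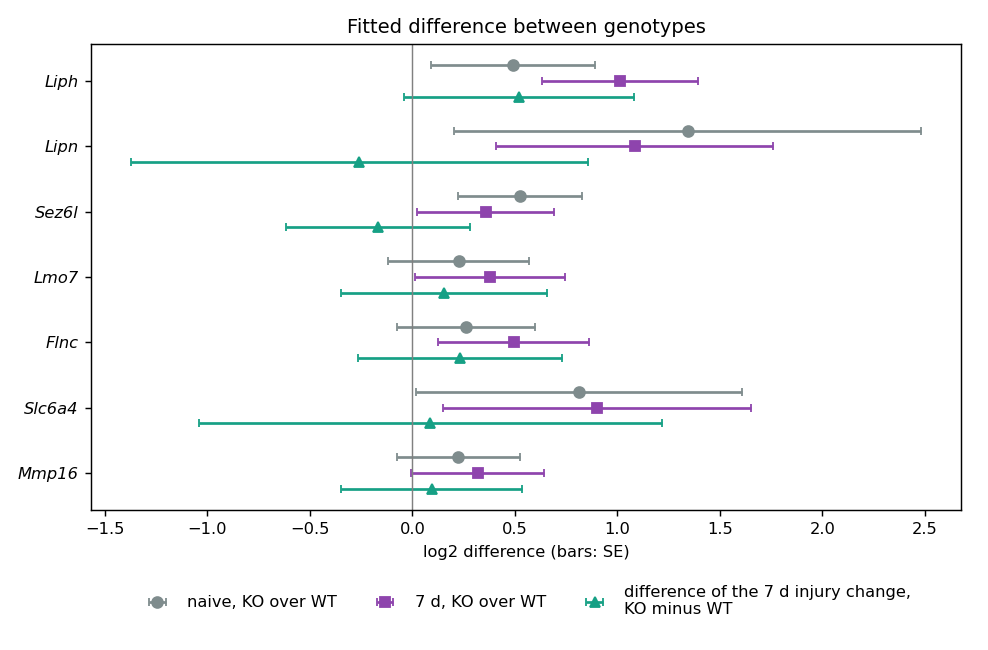
Fitted log2 difference between genotypes for each gene, with SE bars: KO over WT in naive mice (grey circles), KO over WT at 7 d (purple squares) and the difference of the 7 d injury change, KO minus WT (green triangles). With all libraries in, the naive and 7 d points lie above 0, between 0.22 and 1.34; without ko_39, 4 of the naive points and, without ko_420__7d, 2 of the 7 d points lie below 0, and none of the 21 values was called.

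One naive KO library, ko_39, ranked highest for all 7 genes, though by the rule of the closing section it lay far from its group for Lipn and Slc6a4 only. Its lead was small for Flnc, at 9.61 CPM against 8.99 CPM in wt_44. Ko_39 was the highest of the 8 naive libraries for 7 of 7, as for 6.72% of all genes tested, and lay below every 7 d library for 7 of 7. It lay 10% (Lmo7) to 19.7% (Slc6a4) of the way to the 7 d KO mean, counted from the mean of the rest of its group. The summed axon injury markers of ko_39 were 680.3 CPM as well, against 369 to 407 CPM in the other naive KO libraries. Without ko_39, the naive KO difference from WT changed sign for Lipn, Lmo7, Slc6a4 and Mmp16, with log2 values of -3.70, -0.19, -0.92 and -0.02; the Lipn value is a fit to 3 libraries with no read.

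Among injured libraries, ko_420__7d was the highest 7 d KO library for 7 of 7 genes, and wt_416_7d the highest 7 d WT library for 6; of all genes tested, 27.4% were highest in ko_420__7d among 7 d KO and 36.3% in wt_416_7d among 7 d WT. Lipn was the exception, being lowest in wt_416_7d at 2.92 CPM and highest in wt_409_7d at 4.12 CPM. Without ko_420__7d the KO difference from WT at 7 d changed sign for Flnc (-0.07) and Mmp16 (-0.08). After subtracting each group's mean of log2 CPM over the 17 libraries of groups with 3 or more, Sez6l and Mmp16 had a Pearson correlation of 0.91 (0.89 without ko_39), Sez6l and Lmo7 of 0.88 (0.84) and Lmo7 and Mmp16 of 0.87 (0.84). Correlations of Liph with the other 6 lay between 0.36 and 0.54, and between -0.09 and 0.39 without ko_39. Those of Lipn ran from 0.28 with Flnc to 0.79 with Slc6a4, and without ko_39 from -0.09 with Liph to 0.54 with Slc6a4. These correlations are descriptions; all genes of a library share its depth and tissue.

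**Figure D5:**
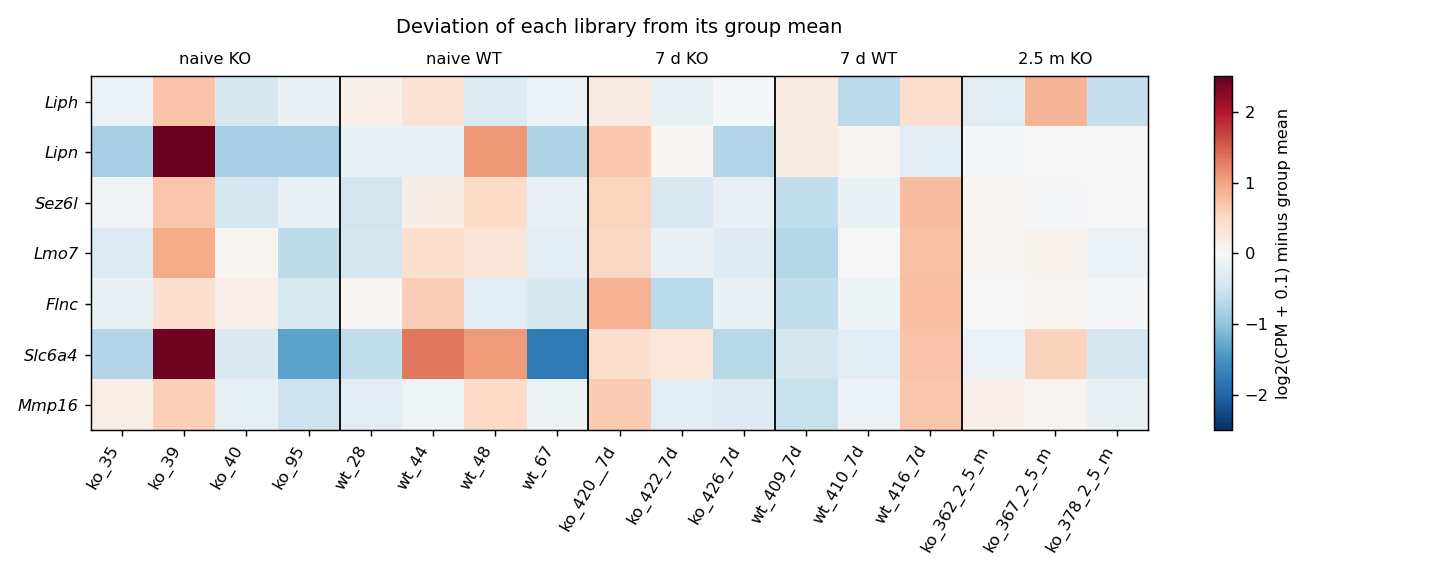
Deviation of each library from its group mean, as log2(CPM + 0.1) minus the group mean, for 7 genes (rows) and 17 libraries (columns, by group); red is above and blue below the group mean. Ko_39 is above its group mean for all 7 genes and ko_420__7d too, while wt_416_7d is above it for 6 and below it for Lipn.

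Across all 18 libraries, log2 CPM of each gene was compared with that of 13538 genes averaging 1 CPM or more. The genes most like Lipn were Atf3 (Pearson r = 0.97), Fgf3 (0.97) and Gpr151 (0.96), and for Slc6a4 Gpr151 (0.98), Kcnk16 (0.97) and Mcoln2 (0.96). Sez6l was most like Draxin (0.98), Sema6a (0.98) and Itga7 (0.97), and Lmo7 most like Csf1 (0.99), Rin1 (0.99) and Itga7 (0.99). Mmp16 was most like Lmo7 (0.98), Chl1 (0.98) and Rin1 (0.98). Flnc came nearest to Flrt3 (0.96), Tmem43 (0.96) and Sh3kbp1 (0.95), and Liph to Tnfrsf8 (0.96), Car3 (0.94) and Loxl2 (0.94). Any gene with a large 7 d difference scores high on this measure. Within groups, over 17 libraries, the gene most like Slc6a4 and most like Lipn was Atf3, at 0.96 (0.94 without ko_39) and 0.83 (0.55 without ko_39). For Lmo7 it was the syndecan gene Sdc1 at 0.96 (0.95), for Sez6l Nrip1 at 0.92 (0.95), and for Mmp16 Sez6l at 0.91 (0.89). For Flnc it was Prc1 at 0.92 (0.91) and for Liph Zfp820 at 0.83 (0.80), whose Spearman correlation with Liph over all 18 libraries was -0.26.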

How the data were processed

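Poly(A)-selected RNA of mouse dorsal root ganglia was sequenced in 18 libraries. The deposited counts are whole-number reads per gene; per the submitters' processing notes, the build was GRCm38 and STAR is listed beside HTSeq 0.6.1p1, DESeq2 1.10.1, bcl2fastq 2.17.1.14 and cutadapt. The deposited normalized signal is those counts divided by a size factor per library, by the authors, and served only as an alternative. The sources used here give no strand setting or annotation release. Genes were named from GENCODE M21 (21252 of 21288 matched a symbol, 36 did not); none of the 7 genes shares exon bases with another gene.

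The counts entered robust quasi-likelihood F tests in edgeR 4.0.16 (R 4.3.3), after TMM scaling and its expression filter (at least 10 counts, 15 in total). The fit had 1 mean per group over all 18 libraries and 12 residual degrees of freedom, with Benjamini-Hochberg adjustment over 19010 genes and calls at an adjusted p below 0.05. Total counts were 12565448 to 21585680 per library. SE comes from the F statistic. DESeq2 1.42.0 was an alternative, beside those in the closing section. The fit was tested on simulated data. No 2 libraries of a group agreed within sampling noise.

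The 7 genes and all lists were chosen with earlier results of these data known. Named besides the 7: from each pathway list up to 3 genes called at 7 d with the smallest adjusted p and up to 2 called at 2.5 months, of which the text gives part; the 3 genes most like each of the 7 (log2 CPM with prior count 2); and family members given with values though not called, chosen after their values were seen. One gene of the pathway lists is not reported here.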

Additional observations from a re-analysis of the deposited data

Results flagged for a closer look

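In the groups of 4 libraries, 3 values lay far from the others of their group, out of 14 groups of gene and genotype examined. The measure was the gap to the nearest value over the range of the group. Chance gives about 1 in 20 groups if they are independent. The Lipn and Slc6a4 values are both from ko_39, and Lipn scores 1.0 because its other 3 libraries are at 0. No excess over chance is read from these values. Lipn stood at 0.915 CPM in the naive KO library ko_39 and at 0 in the other 3. Slc6a4 stood at 7.503 CPM in ko_39, against 0.461 to 1.01 CPM in the other naive KO libraries. Mmp16 stood at 10.51 CPM in the naive WT library wt_48, against 6.18 to 6.85 CPM in the other naive WT libraries. The cause was not tested.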

How the results depend on the processing

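Of the 7 d differences of the 7 genes, none changed direction under any alternative. The genes were chosen for that direction on these libraries, so its persistence is no test of it. With 3 or 4 libraries a group, single libraries set many counts of called genes, and low counts limit Liph and Lipn. DESeq2 called 1105 genes in WT at 7 d, 3634 in KO at 2.5 months, 2075 in KO at 2.5 months against 7 d, and 15, 21 and 48 for KO against WT in naive mice, at 7 d and averaged. Without ko_39, ko_40 and ko_422_7d these counts were 968 in WT at 7 d, 1279 in KO at 7 d, 5059 in KO at 2.5 months against 7 d, 5 for the averaged genotype difference and 1 for the interaction. Fitting the compared groups alone gave 886 in KO at 7 d, 4097 in KO at 2.5 months, 285 in KO at 2.5 months against 7 d, 8 in naive KO against WT and 3 averaged. Removing a gene-length trend gave 1236 in KO at 2.5 months, 9 in naive KO against WT and 1 for the interaction. Of the 7 genes, 1 was called in KO at 2.5 months; the count was 0 with the gene-length trend removed (Liph adjusted p = 0.0508), 0 with the compared groups alone (0.0605) and 2, Liph and Lipn, without the 3 libraries.

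Leaving out 1 library at a time gave 220 (without wt_416_7d) to 646 called genes in WT at 7 d, 1628 (without ko_35) to 3392 in KO at 7 d, 14 (without ko_367_2_5_m) to 1814 in KO at 2.5 months, and 361 (without ko_420__7d) to 5131 (without ko_422_7d) in KO at 2.5 months against 7 d. For KO against WT it gave 1 to 9 (without wt_416_7d) at 7 d and 3 (without ko_420__7d) to 15 (without wt_416_7d) averaged. Of the 7 genes, 6 (without wt_28) to 7 were called in WT at 7 d, and 7 in KO at 7 d throughout, the genes being chosen on that difference. Between 0 and 1 were called in KO at 2.5 months (Liph, or Lipn alone without ko_39). In KO at 2.5 months against 7 d, 3 (without ko_420__7d) to 7 were called.

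Several values of uncalled differences changed sign. In KO at 2.5 months against naive KO, removing the gene-length trend gave 0.14 for Lmo7 and 0.030 for Mmp16. Without ko_39, ko_40 and ko_422_7d the values were 0.45 for Lmo7, 1.94 for Slc6a4 and 0.018 for Mmp16. The same exclusion gave -3.71 for Lipn, -0.39 for Lmo7, -0.048 for Flnc and -1.19 for Slc6a4 in naive KO against WT. It also gave -1.31 for Lipn and -0.21 for Slc6a4 averaged, and 4.82 for Lipn and 0.19 for Sez6l in the interaction. Without single libraries, KO at 2.5 months ran from -0.35 to 0.26 for Lmo7, from -0.42 to 1.67 for Slc6a4 and from -0.35 to 0.043 for Mmp16, the highest values without ko_39. Naive KO against WT ran from -3.70 to 2.58 for Lipn, -0.19 to 0.42 for Lmo7, -0.92 to 1.30 for Slc6a4 and -0.016 to 0.43 for Mmp16, the lowest values without ko_39. KO against WT at 7 d ran from -0.071 to 0.96 for Flnc and -0.079 to 0.75 for Mmp16, lowest without ko_420__7d and highest without wt_416_7d. The averaged difference ran from -1.31 to 1.825 for Lipn and -0.0072 to 1.1023 for Slc6a4. The interaction ran from -1.51 to 4.78 for Lipn, -0.50 to 0.32 for Sez6l, -0.15 to 0.59 for Lmo7, -0.33 to 0.70 for Flnc, -0.40 to 1.82 for Slc6a4 and -0.30 to 0.53 for Mmp16. Lipn fits without ko_39 rest on naive KO libraries with no read, so their size is no bound and no call of Lipn there is read as a result. The cause of these changes was not tested.

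No paired analysis was possible because the groups compared share no library numbers in the labels.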
